A study of Mus musculus with 35 samples.

Results

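The enzymes described here process foreign chemicals, aldehydes and related small molecules in the mouse trachea. Members were taken by gene symbol from the array's annotation: cytochromes P450 whose symbols start with Cyp1 to Cyp4, glutathione S-transferases (Gst and Mgst), aldehyde dehydrogenases (Aldh), flavin monooxygenases (Fmo), UDP-glucuronosyltransferases (Ugt), sulfotransferases (Sult), carboxylesterases (Ces), aldo-keto reductases (Akr1), carbonyl reductase Cbr2 and epoxide hydrolase Ephx1. The rule gave 143 of the 12393 genes on the array, read by 191 of 22626 probe sets, and 65 of the 143 were bright enough to test. The rule uses symbols and no measured value. The data were 35 Affymetrix arrays of tracheal RNA in 7 groups of 5. The native group was normal trachea that had not been transplanted. The isografts had gone into MHC-compatible recipients and the allografts into MHC-incompatible recipients, as heterotopic grafts (placed outside the airway) taken at day 4, 14 or 25. Strain, age, sex and any treatment of the mice are not given in the sources used here. A heterotopic graft is not ventilated, so it models the graft's tissue and not a working airway.

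Xenobiotic metabolism runs in steps. Cytochromes P450, flavin monooxygenases and carboxylesterases expose or add a reactive group, and transferases then couple glutathione, sulfate or glucuronic acid to it. Aldehyde dehydrogenases, carbonyl reductases and aldo-keto reductases deal with aldehydes and ketones, including those made by lipid peroxidation. Aldh1a1, Aldh1a2 and Aldh1a3 also make retinoic acid from retinaldehyde. In the rodent airway the secretory cells known as club cells are the classic site of such enzymes, with Cyp2f2, Cbr2 and Aldh1a1 among their typical products.

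Values are log2 intensities, so a difference of 1 is a 2-fold difference. The arrays were alike in overall brightness, with medians from 5.07 to 5.30. The fifth native array and the fifth day 25 isograft array resembled their groups least. Skin markers averaged 6.68 and 6.51 on them, against at most 3.19 and 3.64 on the others of their groups, and reached 6.18 in a day 4 isograft and 6.62 in a day 4 allograft. Results that rest on these 2 arrays are given with and without them. A gene was called when limma's Benjamini-Hochberg adjusted p was under 0.05, and "rose" and "fell" mean called higher or lower in the first group of a comparison. The labels do not say that arrays came from separate animals, so p-values measure the spread between arrays. Every graft group was set against the same 5 native arrays, so those comparisons are not independent. Fewer cells of a type and less RNA per cell cannot be told apart in such bulk tissue. Centring the arrays on 12 reference genes moved the median difference of all genes by more than 0.1 in some comparisons. Against native trachea it moved by -0.33 in day 4 isografts and by -0.26, -0.17 and -0.12 in day 4, 14 and 25 allografts. Between day 14 and day 4 isografts it moved by 0.33, and between day 14 allografts and isografts by -0.18. For the change of the allograft-isograft difference from day 4 to day 14 it moved by -0.245.

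The families were measured unevenly. Aldehyde dehydrogenases were tested in 15 of 17 genes, glutathione S-transferases of the Gst group in 11 of 16, the microsomal Mgst enzymes in 3 of 3, aldo-keto reductases in 9 of 13 and flavin monooxygenases in 3 of 4. Cytochromes were tested in 15 of 59 genes. The other 78 members stayed below log2 5 on all but a few arrays, and 65 of them reached 5 on no array. They included all 11 Cyp2c genes, whose highest value was 4.72, and all 9 Ugt genes. Cyp2c, most Cyp2d and Cyp3a enzymes and Ugt enzymes are abundant in liver. Of 10 liver markers such as albumin 9 were on the array and none passed the filter, with list means between 2.65 and 3.07. Members below the filter were tested only in an alternative without it.

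Most tested enzymes were lower in day 4 grafts than in native trachea, whether or not donor and recipient matched. In isografts 41 of 65 fell and 9 rose, where 26.1% of all 8306 genes tested fell and 20.2% rose (46.4% in either direction). In allografts 42 fell and 6 rose, against 25.1% and 22% of all genes. The members' median difference was -1.35 in both comparisons, against -0.08 and -0.04 for all genes. All 3 tested sulfotransferases, all 3 flavin monooxygenases and 8 of 11 Gst enzymes fell in each graft, and 40 members fell in both. For a fall in both, the share of all genes was not counted. A gene could pass the filter through the 5 native arrays alone, which favours a fall against them. This holds for members and for all genes. Without the filter, 27 of the other 78 members were called higher and 9 lower in day 4 isografts, near background, and 0 and 9 in day 4 allografts. With the arrays centred on the reference genes, 48 fell and 5 rose in isografts, and 47 fell and 5 rose in allografts. Over all genes, centring moved the number that fell from 2172 to 3615 in isografts and from 2086 to 3143 in allografts.

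Cyp2f2 metabolises naphthalene and other small aromatic compounds in club cells. It read 13.28, 13.78, 13.48, 13.38 and 13.46 on the native arrays and 10.75, 9.63, 10.64, 10.45 and 10.41 in day 4 isografts, with no overlap. The difference was -3.10 (SE 0.71, 8.56-fold lower, adjusted p = 0.000758). In day 4 allografts it read 9.15, 10.61, 10.18, 6.18 and 12.28, all below native trachea but widely spread. Aldh1a1, a retinaldehyde dehydrogenase, fell by 3.67 (SE 0.51), from 12.58 ± 0.34 to 8.91 ± 0.60 (SD, n = 5). Cyp4b1, which activates inhaled protoxins in the lung, fell by 4.32 (SE 0.38). Aldh3a1, which oxidises lipid-derived and aromatic aldehydes, fell by 4.94 (SE 0.65). Cyp4a12a, a fatty acid hydroxylase, fell by 5.38 (SE 0.44) to 2.68 ± 0.10, near background. Ephx1, which hydrolyses epoxides, fell by 2.11 (SE 0.24), and Gstm1, a glutathione transferase, by 3.56 (SE 0.37).

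These falls were as large or nearly so without the arrays that stood apart. Leaving out the fifth native and the fifth day 25 isograft array together gave -3.10 for Cyp2f2, -3.80 for Aldh1a1, -4.50 for Aldh3a1 and -4.72 for Cyp4b1 in day 4 isografts. Cellular markers moved as well. The list of 17 secretory cell markers, 14 of them tested, averaged 10.67 to 11.25 on the native arrays, 7.40 to 8.52 in day 4 isografts and 6.86 to 8.67 in day 4 allografts. In each graft 13 of the 14 fell. Markers of other tissues of the trachea and its surroundings fell too in day 4 isografts: all 5 tested ciliated cell markers, 6 of 7 smooth muscle, 6 of 9 skeletal muscle and 6 of 11 cartilage markers, and both tested thyroid and parathyroid markers (median -7.14). General epithelial markers averaged 7.08 in day 4 isografts against 7.96 in native trachea, and adipocyte markers 7.42 against 9.90. The basal cell, fibroblast and endothelial lists were not lower on average in day 4 isografts than in native trachea. Basal cell markers averaged 8.13 against 7.53, fibroblast markers 10.24 against 10.05 and endothelial markers 6.70 against 6.56. The part of any of these cells in the enzymes' falls was not tested.

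Day 4 allografts and isografts were not distinguished by any member. None of 65 was called by limma, where 0.47% of all genes were higher and 0.0843% lower (0.554% in all), and 1 member had an unadjusted p under 0.05. That member was Cyp4v3, a fatty acid hydroxylase, at 0.61 (SE 0.29, adjusted p = 0.906). The difference was -0.70 (SE 0.71) for Cyp2f2, -0.12 (SE 0.51) for Aldh1a1 and 0.85 (SE 0.53) for Sult1c1, so allograft and isograft arrays overlapped for all 3.

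**Figure D1:**
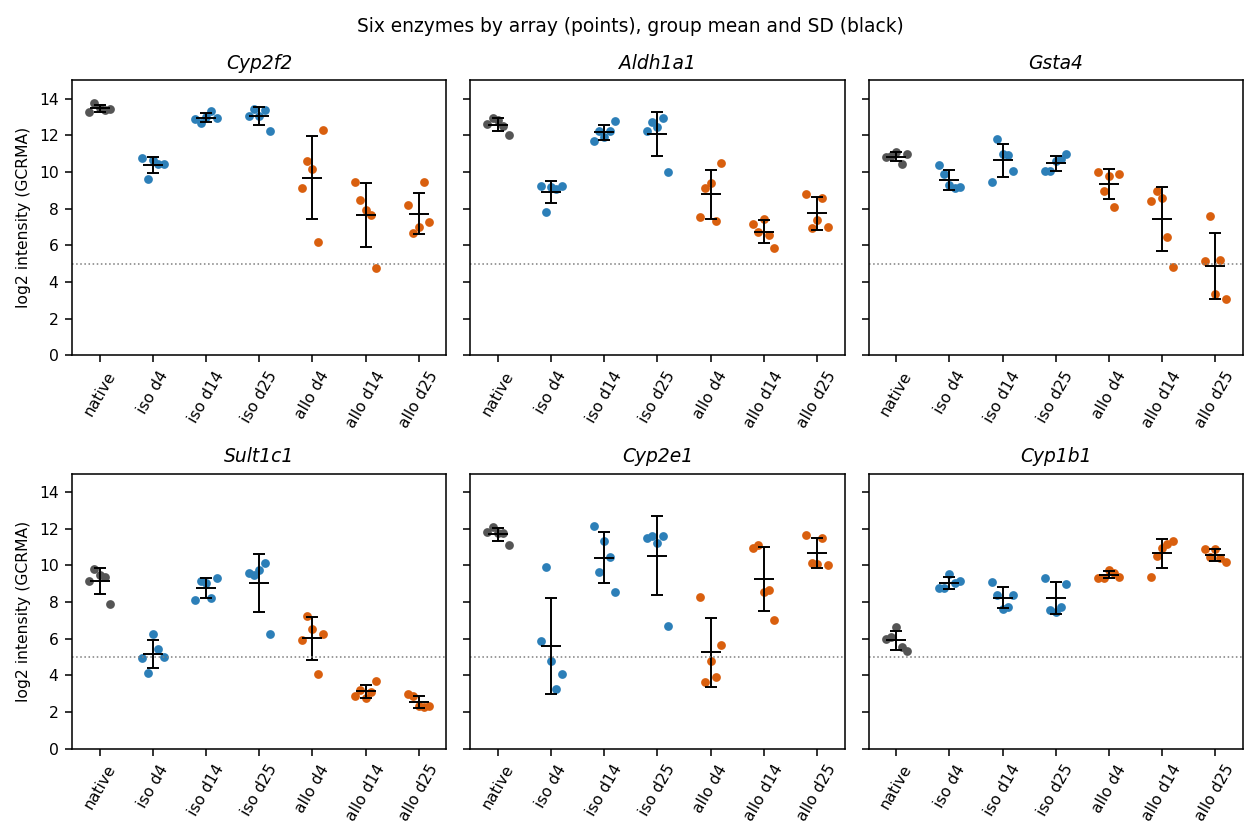
Log2 intensity of 6 enzymes (vertical axis) on each of the 35 arrays, by group (horizontal axis: native trachea in grey, isografts in blue, allografts in orange, at days 4, 14 and 25). Points are arrays, black bars the group mean and SD, and the dotted line the level of 5 used in the filter. Cyp2f2, Aldh1a1 and Sult1c1 were low in both day 4 grafts and then parted, Gsta4 was lowest in day 25 allografts, Cyp2e1 rose again in both grafts, and Cyp1b1 was highest in day 14 and day 25 allografts.

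Isografts regained much of the expression by day 14. Between day 4 and day 14, 27 members rose and 2 fell, where 11.4% of all genes rose and 12.6% fell (24% in all). The 27 comprised 26 of the 41 that had fallen at day 4 and Cyp4v3. Both comparisons use the same day 4 isograft arrays, so a member's changes in them are not independent. With reference gene centring 43 rose and 2 fell, while over all genes the number that rose went from 945 to 2464. Cyp2f2 read 12.89, 12.65, 13.02, 13.30 and 12.96 in day 14 isografts, above every day 4 isograft, a rise of 2.59 (SE 0.71, adjusted p = 0.00814). Aldh1a1 rose by 3.25 (SE 0.51), Sult1c1 by 3.59 (SE 0.53), Sult1d1 by 2.74 (SE 0.59) and Cyp2s1, an extrahepatic cytochrome of epithelia, by 3.43 (SE 0.45). Sult1c1 and Sult1d1 transfer sulfate to phenols and amines. The 2 that fell were Akr1b8, by 1.71 (SE 0.31), and Aldh1a2, by 1.39 (SE 0.32), both of which had risen at day 4.

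Return was incomplete for some enzymes. Against native trachea, 18 members were still lower and 4 higher at day 14, where 16.3% of all genes fell and 12.2% rose. At day 25, 13 were lower and 4 higher, where 7.34% fell and 9.9% rose. The 13 were also lower in the other 5 graft groups, each against the same native arrays: Akr1c18, Aldh2, Aldh3a1, Aldh4a1, Ces1e, Cyp2d22, Cyp4a12a, Cyp4b1, Fmo2, Gsta3, Gstm1, Gstm2 and Gstt3. How many of all genes were lower in every graft group was not counted. Cyp4a12a was at -2.56 (SE 0.44) at day 25 and at -2.01 without the fifth isograft array, with 5.16, 6.64, 5.66, 6.75 and 3.28 against 7.82, 8.71, 8.22, 8.03 and 7.52 in native trachea. Aldh4a1, a mitochondrial enzyme of proline breakdown, was 1.22 (SE 0.19) lower. Aldh3a1 was at -2.40 (SE 0.65), and at -2.99 without that array. For Cyp2f2 the day 25 difference from native trachea was -0.44 (SE 0.71), or -0.24 without the array, and for Aldh1a1 it was -0.51 (SE 0.51), or 0.01 without it, and none of these was called. Where members called in these isograft comparisons have other probe sets, 4 of 7 had the sign of the chosen one at day 25 and 8 of 11 at day 14. The other 2 probe sets of Aldh2 had the opposite sign at both days, and none was called.

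The day 25 count rested on few arrays. It was 10 without native replicate 1, 9 without day 25 isograft replicate 5, and 14 without both arrays that stood apart. Without day 25 isograft replicate 5 the calls for Cyp4b1 (-0.91), Gsta3 (-0.93), Gstm1 (-0.85), Ces1e (-0.54), Fmo2 (-0.92), Aldh2 (-0.81), Cyp4f16 (0.33) and Cyp4f18 (1.08) were lost among the members that follow the naming rule. The calls for Cyp4b1 and Gstm1 were also lost without native replicate 1, 2 or 3, those for Gsta3 without native replicate 1, 2 or 4, for Fmo2 without native replicate 1 or 4, for Cyp4f16 without native replicate 1, 4 or 5 and for Ces1e without native replicate 3. Those for Gstm1, Fmo2 and Cyp4f18 were also lost without day 25 isograft replicate 1. Aldh2, the mitochondrial acetaldehyde dehydrogenase, lost its call without any of 8 of the 10 arrays, all but native replicate 5 and isograft replicate 3, with adjusted p from 0.0526 to 0.129. Between day 25 and day 14 isografts limma called none of 65 members and 0 of 8306 genes (0%), and 3 members had an unadjusted p under 0.05.

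**Figure D2:**
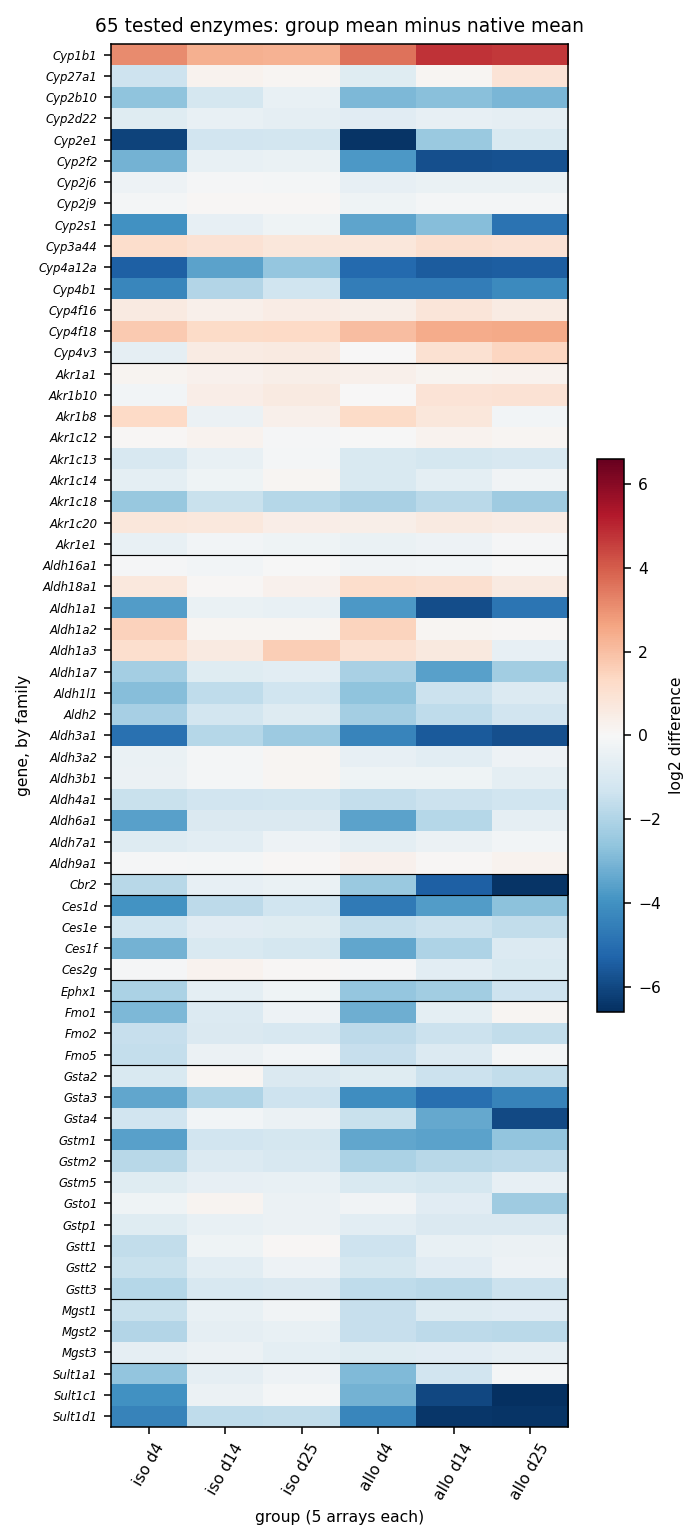
Group mean minus native mean on the log2 scale (colour, red higher, blue lower) for the 65 tested enzymes (vertical axis, by family, lines between families) in the 6 graft groups (horizontal axis, 5 arrays each, all set against the same 5 native arrays). Day 4 isografts and allografts look alike, day 14 and day 25 isografts are paler, and in day 14 and day 25 allografts Cyp2f2, Cyp4a12a, Aldh1a1, Aldh3a1, Cbr2, Sult1c1 and Sult1d1 stay deep blue while Cyp1b1 is red.

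In allografts many of these enzymes were lower than in the isografts of the same day. At day 14, 21 members were lower and 5 higher than in isografts, where 10.5% of all genes were lower and 10.8% higher. At day 25, 20 were lower and 2 higher, where 10.3% were lower and 6.83% higher. The members' median difference was -0.47 at day 14 and -0.46 at day 25, against 0.03 and 0.00 for all genes. With reference gene centring, 25 were lower and 4 higher at day 14, and 23 and 2 at day 25. Over all genes the day 14 split then went from 897 higher and 869 lower to 611 and 1299. The day 25 split went from 567 higher and 857 lower to 448 and 1070. By family, 5 of 15 cytochromes, 5 of 11 Gst enzymes, 2 of 3 sulfotransferases and 2 of 4 carboxylesterases were lower at each day. Aldehyde dehydrogenases were lower in 4 of 15 at day 14 and 3 of 15 at day 25. No aldo-keto reductase and no flavin monooxygenase was called lower at either day with all arrays. Without the fifth day 25 isograft array Akr1c13, a hydroxysteroid-type aldo-keto reductase, was called lower at day 25 (-1.46, SE 0.31, adjusted p = 0.000838).

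The members lower at both days numbered 17: Aldh1a1, Aldh3a1, Cbr2, Ces1e, Ces2g, Cyp2b10, Cyp2f2, Cyp2s1, Cyp4a12a, Cyp4b1, Ephx1, Gsta3, Gsta4, Gstm1, Mgst2, Sult1c1 and Sult1d1. How many of all genes were lower at both days was not counted. Cyp2f2 read 9.47, 8.48, 7.91, 7.64 and 4.77 in day 14 allografts and 8.21, 6.69, 6.99, 9.44 and 7.29 in day 25 allografts. In day 25 isografts it read 13.05, 13.44, 13.07, 13.37 and 12.23. Every allograft array of those days lay below every isograft array. The difference was -5.31 (SE 0.71) at day 14, 39.7-fold, with adjusted p = 9.79e-07, and -5.31 (SE 0.71) at day 25, or -5.51 without both arrays that stood apart.

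Aldh1a1 read 7.18, 6.71, 7.43, 6.56 and 5.83 in day 14 allografts and 11.70, 12.23, 11.88, 12.22 and 12.78 in day 14 isografts. The difference was -5.42 (SE 0.51), and at day 25 it was -4.33 (SE 0.51), or -4.85 without the fifth isograft array. Here too the groups did not overlap at either day, although day 25 isograft replicate 5 was low at 10.01 against 12.22 to 12.93 on the other arrays. Sult1c1 showed the widest difference at both days. It read 2.87, 3.19, 2.77, 3.08 and 3.70 in day 14 allografts and 8.11, 9.12, 9.01, 8.21 and 9.30 in the isografts, a difference of -5.63 (SE 0.53). At day 25 the allograft arrays read 2.96, 2.88, 2.35, 2.28 and 2.30, and the difference was -6.48 (SE 0.53), or -7.17 without the fifth isograft array. These allograft values lie near background, so the fold depends on the authors' background model.

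Cbr2 reduces carbonyl compounds and is abundant in the airway. It read 9.40, 7.25, 9.14, 7.17 and 6.05 in day 14 allografts and 6.89, 6.04, 6.33, 7.61 and 6.73 at day 25, against 11.94 to 13.32 in isografts of those days. The differences were -4.85 (SE 0.56) and -6.07 (SE 0.56). Sult1d1 was at -4.74 (SE 0.59) and -4.85 (SE 0.59), and Aldh3a1 at -3.68 (SE 0.65) and -3.38 (SE 0.65). Without the fifth day 25 isograft array, Sult1d1 was at -5.58 and Aldh3a1 at -2.78 at day 25. Gsta3, a glutathione transferase of the alpha class, was at -2.91 (SE 0.40) and -3.05 (SE 0.40), and Cyp4b1 at -2.63 (SE 0.38) and -2.90 (SE 0.38). Without that array their day 25 differences were -3.46 and -3.29. Mgst2, a microsomal glutathione transferase that also makes leukotriene C4, was at -1.16 (SE 0.20) and -1.30 (SE 0.20).

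Cyp2b10, a phenobarbital-inducible cytochrome, depended on the probe set. The brightest of its 3 gave -1.60 (SE 0.33) at day 14 and -2.53 (SE 0.33) at day 25, and the other 2 gave -3.86 and -3.94 at day 14 and -4.34 and -4.67 at day 25. All 3 had the same direction. Across the called members, 11 of 11 other probe sets had the sign of the chosen one at day 14 and 8 of 8 at day 25. Of these other probe sets, 8 were themselves called at day 14 and 8 at day 25. The carboxylesterases were the least firm of the group. Ces1e at day 14 (-0.68, SE 0.24) lost its call without any of 8 of the 10 arrays (all but isograft replicate 5 and allograft replicate 4), with adjusted p from 0.061 to 0.148. At day 25 (-0.78, SE 0.24) it lost it without isograft replicate 1 or 4 or allograft replicate 4 (at the least -0.62). Ces2g at day 14 (-0.93, SE 0.31) lost its call without isograft replicate 2 or allograft replicate 4 or 5 (at the least -0.70). At day 25 it was at -1.06 (SE 0.31), and without allograft replicate 2 at -0.93, not called (adjusted p = 0.0543).

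Some of these differences arose between day 4 and day 14. The change of the allograft-isograft difference was called in 15 members downwards and 1 upwards, where 4.96% and 2.67% of all genes were (7.63% in all). It was -6.47 (SE 0.75) for Sult1c1, -5.30 (SE 0.72) for Aldh1a1, -4.84 (SE 0.84) for Sult1d1, -4.61 (SE 1.00) for Cyp2f2 and -4.23 (SE 0.79) for Cbr2. Within allografts, 5 members fell from day 4 to day 14 and 6 rose, against 5.27% and 3.65% of all genes (8.92% in all). The count of 11 was 7 without day 4 allograft replicate 2. The 5 were Aldh1a1 (-2.04, SE 0.51), Aldh1a2 (-1.35, SE 0.32), Cbr2 (-2.96, SE 0.56), Sult1c1 (-2.89, SE 0.53) and Sult1d1 (-2.10, SE 0.59). Sult1d1 lost that call without day 4 allograft replicate 2, 3 or 5 (at the least -1.65). For Cyp2f2 the day 14 against day 4 difference in allografts was -2.02 (SE 0.71, adjusted p = 0.0756), not called.

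**Figure D3:**
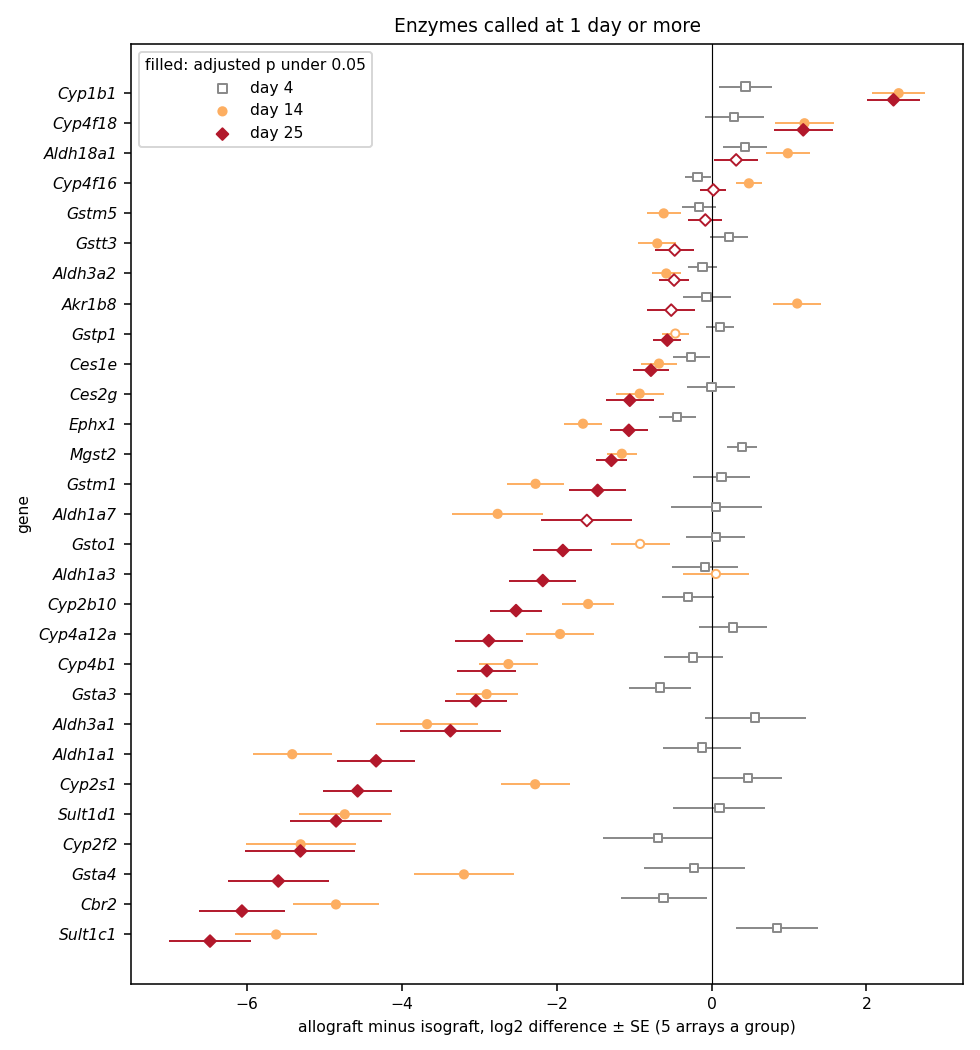
Allograft minus isograft difference on the log2 scale (horizontal axis, with SE, 5 arrays a group) for the 29 enzymes called at day 14 or day 25 (vertical axis). Grey squares are day 4, light orange circles day 14 and dark red diamonds day 25, filled where called. All day 4 symbols are open and near 0, most later ones lie left of 0, and Cyp1b1 and Cyp4f18 lie to the right at both later days.

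A few enzymes were lowest in day 25 allografts. Gsta4, which conjugates glutathione to 4-hydroxynonenal, a product of lipid peroxidation, read 10.84, 10.87, 11.08, 10.43 and 10.96 in native trachea and 9.98, 8.97, 9.77, 8.10 and 9.90 in day 4 allografts. It then read 8.40, 8.95, 8.60, 6.43 and 4.83 at day 14 and 5.13, 7.59, 3.34, 5.19 and 3.08 at day 25, the widest spread of its groups. In isografts of the later days it lay between 9.45 and 11.80, above every allograft array. Its difference from isografts was -3.20 (SE 0.65) at day 14 and -5.60 (SE 0.65) at day 25. Every day 4 graft array already lay below every native array. By limma the difference was -1.26 (SE 0.65, adjusted p = 0.114) in isografts and -1.49 (SE 0.65, adjusted p = 0.0612) in allografts, neither called. This SE pools the spread of all groups, including the widely spread late allografts. It does not measure the spread of the native and day 4 arrays alone.

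Between day 14 and day 25 in allografts 3 members fell and 1 rose, where 1.89% and 1.6% of all genes did (3.49% in all). Gsta4 fell by 2.58 (SE 0.65), a call lost without day 14 allograft replicate 1, 2 or 3 or day 25 allograft replicate 3 or 5 (at the least -2.13, adjusted p from 0.0573 to 0.0848). Cyp2s1 fell by 2.04 (SE 0.45), from 5.21, 5.82, 6.50, 5.36 and 5.69 to 3.93, 2.88, 3.77, 3.94 and 3.85, without overlap. Gsto1, an omega-class transferase, fell by 1.61 (SE 0.38), or by 1.39 without day 14 allograft replicate 2, when it was not called (adjusted p = 0.0543). Gsto1 was not called against isografts at day 14 (-0.92, SE 0.38) and was -1.92 (SE 0.38) at day 25. Ephx1 moved the other way, by 0.94 (SE 0.24), a call lost without day 14 allograft replicate 2 or 4 or day 25 allograft replicate 1 or 4 (at the least 0.76). The whole count was 1 without day 14 allograft replicate 2. The test of a changed allograft-isograft difference between the 2 days called none of 65 members by limma, where 0.47% of all genes were higher and 0.771% lower (1.24% in all), and 4 members had an unadjusted p under 0.05.

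Epithelial markers moved with these enzymes. Secretory markers averaged 9.80 to 10.42 in day 14 isografts and 8.83 to 10.56 at day 25, and in allografts 4.40 to 6.01 and then 3.71 to 3.87. All 14 tested markers were lower in allografts at both days. The 18 general epithelial markers, such as Epcam and keratins, of which 15 were tested, averaged 4.26 to 6.09 in day 14 allografts and 3.28 to 3.62 in day 25 allografts. In isografts of those days they averaged 6.95 to 7.93. Of the 15, 11 were lower at day 14 and 14 at day 25. All 5 tested ciliated cell markers were lower at both days. The basal cell list averaged 5.94 to 7.58 in day 14 allografts and 7.01 to 8.10 in the isografts, which overlapped, with 1 of 9 markers higher and 3 lower. At day 25 it averaged 4.64 to 5.08 in allografts and 6.16 to 8.80 in isografts, with 6 of 9 lower. Both tested thyroid and parathyroid markers were lower at both days, and 7 of 11 cartilage and 6 of 9 skeletal muscle markers were lower at day 14 and none at day 25, where 5 of 7 smooth muscle markers were. The part of these cells in the enzyme results was not tested.

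Another set of enzymes rose again in both kinds of graft. From day 4 to day 14, 4 members rose in isografts and in allografts alike: Cyp2e1, Fmo1 and Sult1a1, which had fallen at day 4, and Cyp4v3, which had not. No share of all genes was counted for a rise in both. Cyp2e1 oxidises ethanol, acetone and fatty acids. It read 11.83, 12.08, 11.74, 11.76 and 11.11 in native trachea and 5.89, 9.92, 4.80, 3.25 and 4.07 in day 4 isografts. Day 4 allografts read 8.29, 3.64, 4.75, 3.90 and 5.65. It thus fell by 6.12 (SE 1.02) in isografts, the widest member difference there, and by 6.46 (SE 1.02) in allografts.

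By day 14 Cyp2e1 read 12.13, 9.62, 11.31, 10.48 and 8.55 in isografts and 10.96, 11.12, 8.54, 8.65 and 7.0 in allografts, which overlapped. The rise was 4.83 (SE 1.02, adjusted p = 0.000822) and 4.01 (SE 1.02, adjusted p = 0.0107). Day 14 allografts were still lower than native trachea by 2.45 (SE 1.02) for Cyp2e1, a call lost without any of 8 of the 10 arrays (all but allograft replicates 1 and 2). Sult1a1 was still lower by 1.24 (SE 0.46), a call lost without native replicate 1 or 2 or allograft replicate 3, 4 or 5 (at the least -1.10). At day 25 allografts read 11.63, 10.13, 10.09, 11.50 and 10.04, and isografts 11.47, 11.61, 11.23, 11.60 and 6.69. The allograft-isograft difference was -1.16 (SE 1.02) at day 14 and 0.16 (SE 1.02) at day 25, or -0.80 (SE 0.97) without day 25 isograft replicate 5, so its sign turned with that array and it was not called. Fmo1, a flavin monooxygenase of nitrogen and sulfur compounds, fell by 2.96 (SE 0.55) in day 4 isografts and rose by 2.05 (SE 0.55) in isografts and 2.60 (SE 0.55) in allografts from day 4 to day 14. Sult1a1, a phenol sulfotransferase, fell by 2.59 (SE 0.46) and rose by 2.01 (SE 0.46) and 1.67 (SE 0.46). The last lost its call without day 4 allograft replicate 5 or day 14 allograft replicate 1 or 2 (at the least 1.45).

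Adipocyte markers followed the same arrays. The list of 8, with 6 on the array and 5 tested, averaged 10.12, 10.07, 10.15, 10.11 and 9.05 on the native arrays and 7.28, 9.92, 6.86, 6.54 and 6.50 in day 4 isografts. Replicate 2 of the latter, the highest, also held the highest Cyp2e1 (9.92), Aldh6a1 (8.05), Ces1f (6.55), Fmo1 (6.96) and Sult1a1 (7.11) of that group. In day 4 allografts the list averaged 9.43, 6.72, 6.80, 6.77 and 7.11, and replicate 1 was highest for both the list and Cyp2e1. In day 25 isografts it averaged 9.71, 10.04, 9.34, 9.78 and 6.32, and replicate 5 was lowest for both. No adipocyte marker was called between allografts and isografts at day 14 or 25. Their part in the results for Cyp2e1, Fmo1 and Sult1a1 was not tested. Aldh6a1, a mitochondrial semialdehyde dehydrogenase of valine breakdown, fell by 3.56 (SE 0.60) and Ces1f, a carboxylesterase, by 3.14 (SE 0.69) in day 4 isografts. Ces1d, a carboxylesterase known from adipose tissue and lung, fell by 3.93 (SE 0.83). It remained lower in day 25 allografts than in native trachea by 2.70 (SE 0.83), with 8.89, 10.82, 7.33, 9.48 and 6.94.

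**Figure D4:**
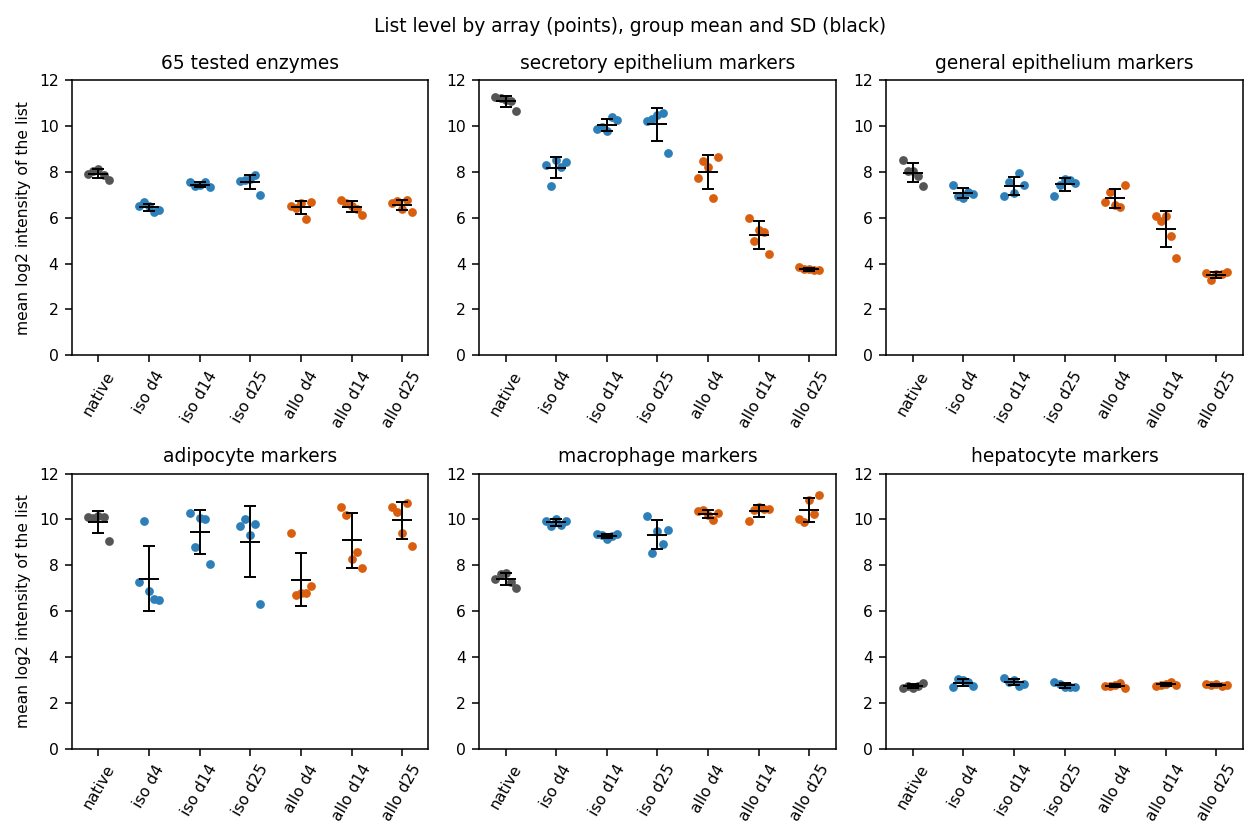
Mean log2 intensity of a gene list (vertical axis) on each array (points), with group mean and SD (black), for the 65 tested enzymes and for markers of secretory epithelium, general epithelium, adipocytes, macrophages and hepatocytes, by group (horizontal axis). Epithelial markers were lowest in day 25 allografts, adipocyte markers were low in most day 4 grafts and returned in both graft types, macrophage markers were lowest in native trachea, and hepatocyte markers lay between 2.65 and 3.07 throughout.

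Few enzymes ran the other way. Cyp1b1, a cytochrome that oxidises oestradiol and polycyclic hydrocarbons and is expressed in mesenchymal cells and macrophages, was higher than in native trachea in all 6 graft groups. It read 5.96, 6.12, 6.65, 5.54 and 5.31 in native trachea and 8.75, 8.74, 9.52, 9.05 and 9.14 in day 4 isografts, a rise of 3.12 (SE 0.35, 8.72-fold). In day 14 allografts it read 9.35, 10.53, 10.92, 11.17 and 11.32, and in day 14 isografts 9.06, 8.40, 7.64, 7.72 and 8.39. The groups did not overlap, and the difference was 2.42 (SE 0.35, adjusted p = 3.01e-06).

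At day 25 Cyp1b1 read 10.87, 10.44, 10.89, 10.40 and 10.19 in allografts and 9.33, 7.55, 7.46, 7.71 and 8.98 in isografts, a difference of 2.35 (SE 0.35), or 2.54 without both arrays that stood apart. The change of the allograft-isograft difference from day 4 to day 14 was 1.98 (SE 0.49). It was the only member called upwards in that comparison. Its relatives Cyp1a1 and Cyp1a2, the classic targets of the aryl hydrocarbon receptor, stayed below the filter, with group means from 3.27 to 3.84 and from 2.36 to 2.50.

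Cyp4f18, which hydroxylates leukotriene B4 in myeloid cells, was also higher in every graft group than in native trachea, in day 25 isografts by 1.32 (SE 0.38), a call lost without their replicate 1 or 5 (at the least 0.95). Against isografts it was at 1.20 (SE 0.38) at day 14 and 1.18 (SE 0.38) at day 25, with 5.87, 6.30, 5.96, 5.87 and 7.10 in day 14 allografts and 4.79, 5.61, 5.27, 5.19 and 4.24 in the isografts. The groups did not overlap at day 14 and did at day 25, where the isografts reached 6.57. The day 14 call was lost without allograft or isograft replicate 5 (at the least 0.98, adjusted p from 0.0819 to 0.0878). The day 25 call was lost without any of 5 arrays, isograft replicates 2, 3 and 4 and allograft replicates 4 and 5 (at the least 0.89). Without day 25 isograft replicate 5 it was 1.43 (SE 0.39).

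Akr1b8, an aldo-keto reductase of retinaldehyde and lipid aldehydes, was 1.11 (SE 0.31) higher in day 14 allografts than in isografts. It was not called at day 25 (-0.52, SE 0.31). Aldh18a1, an enzyme of proline synthesis, was 0.98 (SE 0.28) higher at day 14, and 0.82 without day 14 isograft replicate 3, when it was not called (adjusted p = 0.0503). Its other kept probe sets differed less, in the same direction. They averaged 5.16, 6.32, 5.28 and 5.16 in day 14 allografts, against 4.91, 5.84, 4.86 and 5.04 in the isografts. Cyp4f16 was 0.48 (SE 0.17) higher at levels of 4.51 and 4.99, near background. It lost its call without any of 7 of the 10 arrays (all but isograft replicate 5 and allograft replicates 2 and 4) and under reference gene centring (0.31, adjusted p = 0.181).

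The 13 macrophage markers averaged 7.02 to 7.66 on the native arrays and 9.71 to 10.02 in day 4 isografts. They averaged 9.16 to 9.36 in day 14 isografts, 9.94 to 10.55 in day 14 allografts, 8.53 to 10.15 in day 25 isografts and 9.87 to 11.09 in day 25 allografts, and the day 25 ranges overlapped. Between allografts and isografts 8 of the 13 were higher at day 14, and at day 25 8 were higher and 1 lower. Their part in the results for Cyp1b1 and Cyp4f18 was not tested.

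The retinaldehyde dehydrogenases each took their own course. Aldh1a2 rose in both day 4 grafts, from 3.59, 3.73, 3.84, 3.58 and 4.43 in native trachea to 5.87, 4.75, 5.42, 5.15 and 5.58 in isografts and 4.57, 5.68, 6.86, 5.30 and 4.08 in allografts. The rise was 1.52 (SE 0.32) and 1.46 (SE 0.32), and by day 14 both grafts were back between 3.54 and 4.16. Aldh1a3 read 5.85, 5.41, 7.72, 7.0 and 8.10 in day 25 isografts and 4.17, 4.44, 5.11, 5.29 and 4.17 in day 25 allografts, all isografts above all allografts, a difference of -2.18 (SE 0.43), or -1.86 (SE 0.43) without isograft replicate 5. It was not called at day 14 (0.06, SE 0.43). Against native trachea Aldh1a3 was 1.61 (SE 0.43) higher in day 25 isografts and 1.27, no longer called, without both arrays that stood apart (adjusted p = 0.0508). Aldh1a7 is close in sequence to Aldh1a1 and is not counted here as a retinaldehyde dehydrogenase. It was lower in allografts at day 14 (-2.77, SE 0.59) and was not called at day 25. Probe sets of such close relatives can share signal, which was not tested.

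Of the 65 tested members 7 were called in no comparison, and the share of all genes called in none was not counted. Akr1a1, the general aldehyde reductase, lay between 12.27 and 13.22 on all 35 arrays, and Aldh9a1, which acts on aminobutyraldehyde, between 9.46 and 11.28. Both are among the 7, with Akr1c12, Aldh16a1, Aldh3b1, Cyp2j6 and Cyp2j9. At day 25, 32 members were lower in allografts than in native trachea and 7 higher, where 19.7% of all genes were lower and 18.4% higher. At day 14, 38 were lower and 7 higher, where 26.5% and 21.5% of all genes were.

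Partners of the enzymes were read from fixed lists. Of all genes, 10.8% were higher and 10.5% lower in allografts than in isografts at day 14, and 6.83% and 10.3% at day 25. In day 4 isografts 20.2% rose and 26.1% fell against native trachea, and in day 4 allografts 22% and 25.1%. Of 16 receptors and regulators 8 were tested, and Ahr, the aryl hydrocarbon receptor, was lower in allografts by 1.60 (SE 0.25) at day 14 and by 1.66 (SE 0.25) at day 25, where its range was 6.99 to 7.82 against 8.65 to 9.40 in isografts. Nfe2l2, the regulator of antioxidant genes known as NRF2, was lower by 0.54 (SE 0.19) and 0.57 (SE 0.19). Of these 8 tested regulators 2 fell at day 14 and 3 at day 25, and none rose.

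All 7 measured genes of the list of P450 electron donors and haem supply were tested, and 6 fell in day 4 isografts and 6 in day 4 allografts. Alas1, the first enzyme of haem synthesis, fell by 3.15 (SE 0.35), Fdx1, a ferredoxin, by 1.90 (SE 0.32) and Pgrmc1, a haem-binding partner of P450 enzymes, by 1.77 (SE 0.21) in isografts. In allografts against isografts 3 of the 7 were lower at day 14, and at day 25 2 were lower and 1 higher.

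Of 11 tested genes of glutathione supply and NRF2-linked reductases, 3 were higher and 2 lower in allografts at day 14 and 4 lower at day 25. Gpx2, an epithelial glutathione peroxidase, was at -1.78 (SE 0.34) and -3.47 (SE 0.34), and Gclc, the catalytic subunit for glutathione synthesis, at -1.58 (SE 0.43) and -2.09 (SE 0.43). Hmox1, the inducible haem oxygenase, rose by 3.67 (SE 0.46) in day 4 isografts. Of 9 tested retinoid genes 6 fell and 1 rose in day 4 isografts. Adh1, a retinol and ethanol dehydrogenase, fell by 2.94 (SE 0.39) and Rarres2, a retinoid-responsive chemoattractant, rose by 1.99 (SE 0.31). Of 12 tested genes of the list of other conjugating enzymes and efflux pumps, 1 was higher and 2 lower in allografts at day 14 and 1 lower at day 25. Whether any of the partner lists differed from the shares of all genes was not tested.

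The 250 bases before the start of 3 members are shown because they took opposite courses: Cyp2f2 and Sult1d1, lower in allografts, and Cyp1b1, higher in allografts. They are RefSeq sequences of build GRCm38.p6, 5′ to 3′ on the gene's strand, at chr7:27119705-27119954 (plus strand), chr5:87569007-87569256 (minus strand) and chr17:79715062-79715311 (minus strand). Capitals mark matches to GCGTG on either strand, the core bound by the aryl hydrocarbon receptor.
Cyp2f2: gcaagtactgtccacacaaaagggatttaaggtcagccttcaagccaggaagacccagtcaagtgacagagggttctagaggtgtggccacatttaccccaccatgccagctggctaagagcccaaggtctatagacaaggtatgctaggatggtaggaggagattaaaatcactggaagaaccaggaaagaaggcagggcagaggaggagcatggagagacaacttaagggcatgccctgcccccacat
Sult1d1: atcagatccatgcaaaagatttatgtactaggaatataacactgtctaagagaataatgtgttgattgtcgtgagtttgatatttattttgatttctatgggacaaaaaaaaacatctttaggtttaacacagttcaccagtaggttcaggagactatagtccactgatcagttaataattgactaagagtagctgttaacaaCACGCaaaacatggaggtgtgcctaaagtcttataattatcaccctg
Cyp1b1: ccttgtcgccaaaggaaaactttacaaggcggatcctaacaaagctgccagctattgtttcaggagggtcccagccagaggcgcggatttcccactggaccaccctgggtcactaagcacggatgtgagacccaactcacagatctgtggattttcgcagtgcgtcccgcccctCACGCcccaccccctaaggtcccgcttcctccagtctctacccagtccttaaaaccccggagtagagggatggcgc
The match began 47 bases upstream of the start in Sult1d1 and 76 in Cyp1b1. Cyp2f2 had none in this window.

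Over the same window, 53 of the 65 tested members had 59 promoters in the table, and 30.5% of these held GCGTG on either strand, against 28.2% of all 32851 promoters. It was in 25.0% of the 16 promoters of members lower in allografts at both days and in 4 of 5 promoters of the members higher in allografts at day 14 or 25 (Akr1b8, Aldh18a1, Cyp1b1 and Cyp4f16). TGACNNNGC, the antioxidant response element, was in 10.2% of members' promoters and 10.2% of all. TGTTTAC, a forkhead factor motif, was in 8.5% and 3.2%. The motifs were counted independently of each other. A match here is a description of letters and not a site.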

How the data were processed

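RNA of native tracheas and tracheal grafts was measured on 35 Affymetrix arrays, per the labels, as biotin-labelled cRNA. The authors deposited log2 intensities made with GCRMA 1.1.3, per the submitters' processing notes. GCRMA subtracts a modelled background, normalises and summarises probes. Depth has no counterpart on arrays, and 5 arrays a group limit the precision. From 22690 probe sets 64 controls were set aside. Of the other 22626, 20380 named 1 gene, 691 several and 1555 none in the platform annotation of 2016. Only the first were named, and 11 probe sets shared with a member were left out. Probe sets at log2 5 or more in at least 5 arrays were kept (13678). With 5 arrays a group, a gene could pass through 1 group alone, which favours a fall against that group. A gene was read from its probe set with the highest mean.

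A model with 1 mean per group was fitted across the 35 arrays, using limma 3.58.1 under R 4.3.3 (28 residual degrees of freedom), with Benjamini-Hochberg adjustment over all kept probe sets. In simulated data for day 14 allografts against isografts, limma recovered 61% of 100 changes of log2 1 and 94% of 100 of log2 2, with 8 false calls among 13678 probe sets. Percentages over all genes use 8306 genes. They were counted for single comparisons only, so members called in several comparisons at once have no such share beside them.

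The members, lists and alternatives were chosen with earlier results of these data known. The naming rule took Cyp2f2, Aldh1a1 and Gsta4, the 4 brightest tested members of each family, and the widest called differences of some comparisons. These were 6 either way for allografts against isografts and for isografts against native trachea. For the change of the allograft-isograft difference between days they were 4 either way. Allografts against native trachea and plain differences between days named no member. Other members named were chosen after their values were seen. The symbol rule also takes steroid and vitamin cytochromes such as Cyp27a1. Deviations of same-numbered arrays from their group means had a median correlation of 0.04 over 105 pairs. Arrays of different numbers had 0.007 over 420 pairs. In some pairs of groups all same-numbered correlations were above 0, such as day 4 isografts with day 4 allografts (0.045 to 0.467). Whether numbers pair some of the arrays is thus not settled by this median. Alternatives were another filter, array weights, repeated quantile normalisation, reference gene centring, other fits and thresholds, and leaving out arrays.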

Additional observations from a re-analysis of the deposited data

Results flagged for a closer look

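In 25 of 308 combinations of 44 named members and 7 groups, 1 array lay far from the other 4 by Dixon's test. Chance gives about 1 in 20. Of these, 5 were native replicate 5 and 5 were day 25 isograft replicate 5, the arrays with the highest skin markers of their groups. Skin markers were also high on day 4 isograft replicate 1 (6.18) and on day 4 allograft replicates 1 (6.25) and 3 (6.62). Those arrays were left out only singly.

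Native replicate 5 was high for Aldh3a1 (11.02, the others 8.32 to 9.07) and Ces2g (8.29, the others 6.36 to 6.62), and low for Cbr2 (12.40), Ces1d (10.64) and Gsta3 (7.51, the others 9.84 to 10.25). Native replicate 3 was high for Ces1e at 6.08. Day 25 isograft replicate 5 was low for Aldh1a1 (10.01), Ces1d (8.50), Cyp2e1 (6.69, the others 11.23 to 11.61) and Sult1c1 (6.28, the others 9.46 to 10.13), and high for Cyp4f16 (5.41). Day 25 isograft replicate 3 was high for Aldh2 (11.21).

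Day 4 isograft replicate 2, with the highest adipocyte markers of its group, was high for Aldh6a1 (8.05, the others 5.55 to 6.21) and Ces1f (6.55), and low for Aldh1a1 (7.84) and Sult1d1 (5.48). Day 4 isograft replicate 1 was high for Aldh3a1 (6.54, the others 3.49 to 4.14) and low for Fmo2 (3.73). Day 14 isograft replicate 1 was high for Akr1c20 (5.68) and replicate 2 for Ces2g (8.0). Among allografts, day 4 replicate 3 was low for Cyp4f18 (5.32), day 14 replicate 1 low for Aldh1a2 (3.54), day 14 replicate 4 high for Akr1c20 (5.09) and Sult1d1 (4.51), and day 25 replicate 2 low for Cyp2s1 (2.88). The part of skin or adipose tissue in these values was not tested.

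The allograft-isograft difference itself changed from day 4 to day 14, by limma's interaction term, for Sult1c1 (-6.47, adjusted p = 5.51e-07), Aldh1a1 (-5.30, adjusted p = 6.74e-06), Sult1d1 (-4.84, adjusted p = 0.000252), Cyp2f2 (-4.61, adjusted p = 0.0032) and Cyp1b1 (1.98, adjusted p = 0.00921).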

How the results depend on the processing

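Of 260 called differences of the named members, 206 remained called without each array in turn and 54 were lost at least once. None turned direction in those fits. Aldh2 turned when a gene's probe sets were averaged, to 0.30 (adjusted p = 0.571) in day 14 isografts against native trachea and 0.10 (adjusted p = 0.881) in day 25 isografts. The replicate block kept 259 of the 260 calls and every count within 1.5 times, with 31 members for isografts between days 4 and 14 and 13 for allografts. Counts moved by more than 1.5 times as follows, and the cause was not tested except where fewer or more genes or samples entered. Against native trachea, day 4 isografts gave 87 of 143 members without a filter. Of the 78 members below the filter, 27 were then called higher and 9 lower, near background. Day 14 isografts gave 40 without a filter, 13 with the filter at log2 7 and 8 at an adjusted p under 0.01. Day 25 isografts gave 9 with the strict filter, 8 when only the arrays compared were fitted and 5 at 0.01, and 9 to 19 without each array. Between days, isografts gave 45 under reference gene centring. Allografts from day 4 to 14 gave 18 with array weights and 5 at 0.01, and 7 to 12 without each array (7 without day 4 allograft replicate 2). From day 14 to 25 allografts gave 2 on the arrays compared and 1 at 0.01, and 1 to 4 without each array. The change of the allograft-isograft difference from day 14 to 25 gave 2 with the strict filter, array weights, the arrays compared alone or without both arrays that stood apart, and 0 to 1 without each array. Centring moved the split over all genes of day 4 isografts against native trachea from 1679 higher and 2172 lower to 900 and 3615, and of day 14 against day 4 isografts from 945 and 1046 to 2464 and 478. Differences below about log2 5 lie near background and are bounded by it.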

Other observations

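The 78 members below the filter were tested only in the alternative without a filter. There 27 were called higher and 9 lower in day 4 isografts than in native trachea, with a median difference of 0.36 among the 27. In day 14 isografts 13 were higher and 5 lower. The group means that follow are a description of members that were lower in allografts than in native trachea, so they do not stand for the 78. Sult1c2, a sulfotransferase, had means of 4.80 in day 14 isografts and 2.90 in day 14 allografts, and 3.79 in native trachea. Ugt2b34, a glucuronosyltransferase with the highest single value of the 78 (6.46), had a mean of 5.24 in native trachea and 3.46 in day 25 allografts, and Ugt8a, which makes galactosylceramide, 4.47 and 3.05.

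Akr1b8 was spread in native trachea, at 9.10, 8.63, 8.49, 6.76 and 6.67, and even in day 4 isografts, at 9.27, 9.18, 9.33, 9.37 and 9.18. Allograft arrays of day 14 differed among themselves for Aldh6a1 (10.38, 9.28, 6.13, 7.19 and 6.86), with the highest values in replicates 1 and 2, which also had the highest adipocyte list means (10.53 and 10.19, the others 7.87 to 8.60).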
